A study of Mus musculus with 18 samples.

Results

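The genes described here are 8 that mark the visceral endoderm: the secreted proteins Afp, Ttr, Apoa1 and Apob, the endocytic receptor proteins Cubn, Amn and Lrp2, and the adaptor Dab2. They were taken by gene symbol, and are 8 of the 18193 genes that have a probe set naming 1 gene on the array. The array carries 25 probe sets for them. 7 of the 8 were bright enough to be tested among 14432 genes, and Apob was not.

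The data came from mouse cells of strain C57/B6, labelled either Hmgn1+/+ or Hmgn1-/-, where Hmgn1 is a nucleosome-binding protein. Each genotype was measured at 3 stages, as embryonic stem (ES) cells, as neural progenitors (NP) and as neurons (N), with 3 arrays in each of the 6 groups, labelled as biological replicates. All ES cells were kept in LIF and serum replacement, either on mitomycin-treated embryonic fibroblast feeders or without feeders, and the labels do not say which arrays had feeders. The neural cells were made from the ES cells with a commercial kit for mouse dopaminergic neurons. The labels do not give the number of cell lines per genotype or say whether the replicates were separate differentiation runs. Differences between lines and differences between genotypes therefore cannot be told apart, and the p-values measure only the spread between these arrays.

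Visceral endoderm is the outer layer of the early mouse embryo, and later lines the yolk sac. It secretes many of the proteins that the fetal liver makes afterwards, and takes up maternal proteins by endocytosis. Cubilin, the product of Cubn, binds ligands such as apolipoprotein A-I and intrinsic factor with vitamin B12 but has no membrane anchor, which amnionless, the product of Amn, supplies. Megalin, the product of Lrp2, is a large receptor of the LDL receptor family, and Dab2 links such receptors to clathrin. The receptors also act in kidney proximal tubule, Lrp2 in the neural tube, and Ttr is a main product of the choroid plexus, so no member marks visceral endoderm alone.

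The 250 bases before the transcription start are shown for 4 members that changed between genotypes in the progenitors. Cubn and Dab2 had the most similar profiles of all member pairs, Amn is the partner of Cubn, and Afp moved the other way. The sequences are RefSeq's on GRCm38.p6, taken for 7 of the 8 members with Ttr left out. They read 5′ to 3′ on the gene's strand, with capitals marking the HNF1 motif GTTAAT where it occurs:
Cubn, chr2:13491877-13492126, minus strand: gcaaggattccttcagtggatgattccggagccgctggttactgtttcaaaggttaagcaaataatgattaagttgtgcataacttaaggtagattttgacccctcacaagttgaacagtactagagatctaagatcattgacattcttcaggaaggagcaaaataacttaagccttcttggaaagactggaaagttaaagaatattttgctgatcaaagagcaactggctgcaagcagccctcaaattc
Amn, chr12:111270846-111271095, plus strand: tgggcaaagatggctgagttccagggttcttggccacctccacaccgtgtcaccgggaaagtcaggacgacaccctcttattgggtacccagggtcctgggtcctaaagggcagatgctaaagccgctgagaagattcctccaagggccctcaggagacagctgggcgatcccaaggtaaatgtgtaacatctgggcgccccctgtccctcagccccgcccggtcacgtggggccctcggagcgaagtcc
Dab2, the second of 2 listed starts, chr15:6386498-6386747, plus strand: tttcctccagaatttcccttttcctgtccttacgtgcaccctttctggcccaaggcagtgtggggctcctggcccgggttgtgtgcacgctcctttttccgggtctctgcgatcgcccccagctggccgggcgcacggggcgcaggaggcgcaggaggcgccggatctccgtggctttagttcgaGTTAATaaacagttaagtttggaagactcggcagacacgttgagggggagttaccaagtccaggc
Afp, chr5:90490464-90490713, plus strand: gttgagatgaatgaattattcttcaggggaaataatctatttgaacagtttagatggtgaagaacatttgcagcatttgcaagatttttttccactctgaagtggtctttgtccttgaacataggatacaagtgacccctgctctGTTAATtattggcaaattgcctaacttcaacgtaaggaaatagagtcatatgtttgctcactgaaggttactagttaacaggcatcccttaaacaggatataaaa

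Motifs of endoderm factors were searched on both strands in the windows of these 7 members, without Ttr. The GATA motif AGATAA, the forkhead motif TGTTTAC, the HNF4 motif CAAAGTCCA and the Sox motif AACAAT had no match in any of them. GTTAAT occurred in 2 windows, 105 bases before the Afp start and 65 bases before the second Dab2 start. Among all 32851 promoter windows of this length, 9.99% held AGATAA, 3.17% TGTTTAC, 0.384% CAAAGTCCA, 9.42% AACAAT and 6.43% GTTAAT. The Cubn window had 2 CpG dinucleotides and 39.6% G or C. The first Dab2 start, not shown, was like it, with 2 and 36.8%, and the second had 17 and 60%. Amn had 11 CpGs, Afp had 1, and the median over all windows was 6. None of these matches or counts shows binding.

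Arrays of the same group correlated at 0.995 to 0.998 over the tested genes, arrays of the other genotype at 0.99 to 0.994, and arrays of another cell type at 0.645 to 0.87. ES +/+ replicate 3 stood apart, with 32 genes more than 2-fold from both other arrays of its group, against 0 to 12 on the other arrays. On its brightest probe set, 1438940_x_at, Hmgn1 itself was lower in -/- cells (limma). The difference was 0.31 (log2) in ES cells, 0.33 at the progenitor stage and 0.32 at the neuron stage (adjusted p = 0.000519, 7.49e-05 and 0.000152). It was not absent: this probe set still read 8770 to 9079 in -/- ES cells, against 11022 to 11332 in +/+. Probe set 1422495_a_at read 7426 to 7866 in -/- ES cells, against 9894 to 10214 in +/+. The sources used here do not say where the Hmgn1 probes lie relative to the deleted part. On chromosome 14, which holds no member, 48.9% of tested genes were lower in -/- ES cells, against 4.32% of all genes. The shares were 32.3% against 9.19% in progenitors and 22.1% against 7.27% in neurons. Values are linear intensities, and each array's 40th percentile, between 36.6 and 38.7, served as its background bound. Tests used limma on log2(intensity + 1), with Benjamini-Hochberg adjustment over all tested genes and a call at adjusted p under 0.05. In bulk samples, fewer cells of a type and less RNA per cell cannot be told apart.

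The members followed different courses along the differentiation. Ttr rose at each step, Cubn, Dab2 and Lrp2 peaked in the progenitors, Amn was highest in the neurons, and Afp was low with its highest values in the progenitors. Apoa1 stayed within 2-fold of the bound on its brightest probe set, and Apob below it. From ES cells to progenitors, 6 of the 7 tested members rose and 0 fell in +/+ cells, where 78.5% of all genes changed, 41.3% up and 37.2% down. In -/- cells 5 rose and Amn fell, against 77.7% of all genes changed, 39.8% up and 38.0% down. From progenitors to neurons 2 rose and 4 fell in +/+ cells, against 79.0% of all genes, 34.6% up and 44.4% down. In -/- cells 2 rose and 5 fell over that step, against 80.9%, 35.2% up and 45.6% down. Between neurons and ES cells all 7 tested members differed in both genotypes, 4 higher and 3 lower in neurons. The Afp difference was small, at -0.34 (log2) in +/+ and -0.24 in -/-. With the mean of its kept probe sets it lost its call in both genotypes (limma, adjusted p = 0.128 and 0.0539). Of all genes 88.7% differed in +/+ (43.4% higher and 45.2% lower) and 88.3% in -/- (42.5% higher and 45.9% lower). With most genes changing, these counts say little about the members, and their sizes are given gene by gene.

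**Figure D1:**
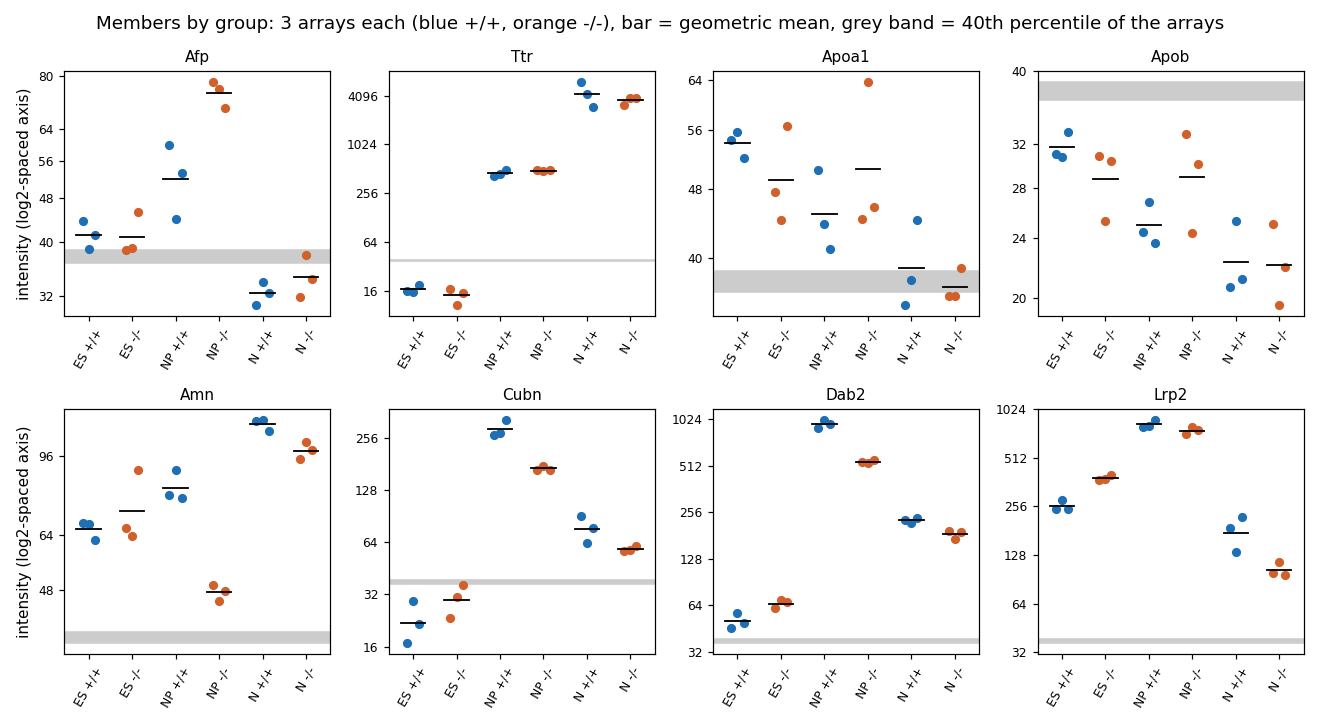
Intensity of each member's brightest probe set on each of the 18 arrays (vertical axis log2-spaced, scale differing by panel; blue +/+, orange -/-; black bar, geometric mean of 3 arrays; grey band, background bounds of 36.6 to 38.7). Cubn, Dab2 and Lrp2 peak in the progenitors, Ttr reaches 2997 to 6048 in +/+ neurons, and Apob never reaches the band.

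Among the secreted products, Ttr, the transthyretin carrier of thyroid hormone and retinol-binding protein, changed most. On its probe set 1454608_x_at it read 15.9, 15.5 and 18.7 in +/+ ES cells and 16.9, 10.7 and 15.1 in -/- ES cells, all below the bound. In progenitors it read 417.6, 440.1 and 493.1 in +/+ and 488.1, 477.3 and 491.8 in -/-. In neurons it read 6048.4, 4264.3 and 2997.2 in +/+ and 3130.7, 3811.7 and 3865.7 in -/-. The 3 cell types did not overlap, while the genotypes overlapped within each of them.

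On the values as read, Ttr was 4.67 higher (log2) in +/+ progenitors than in ES cells (limma, adjusted p = 6.4e-13). It was 7.92 higher in +/+ neurons than in ES cells (limma, adjusted p = 2.49e-16). With values raised to the background bound, the differences were at least 3.52 and 6.76. From progenitors to neurons it rose by 3.24 (SE 0.19; adjusted p = 8.35e-11) in +/+ and by 2.88 (adjusted p = 3.66e-10) in -/-. No genotype difference passed the test. It was 0.11 (95% interval -0.29 to 0.52) in progenitors and -0.25 (-0.65 to 0.16) in neurons. In ES cells both genotypes were below the bound on this probe set; on 1451580_a_at, above it in both, the difference was -0.16 (-0.63 to 0.31).

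The other 3 Ttr probe sets gave the same order of cell types. They differed in ES cells, where 1451580_a_at read 58.3 to 91.9, above the bound, and the 3 others 7.6 to 22.1. Its step from +/+ ES cells to progenitors was 1.63 (SE 0.22), so the size of this step depends on the probe set. The step from +/+ progenitors to neurons was 2.74 to 3.47 on all 4. Within +/+ neurons, replicate 1 was highest and replicate 3 lowest on every Ttr probe set.

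**Figure D2:**
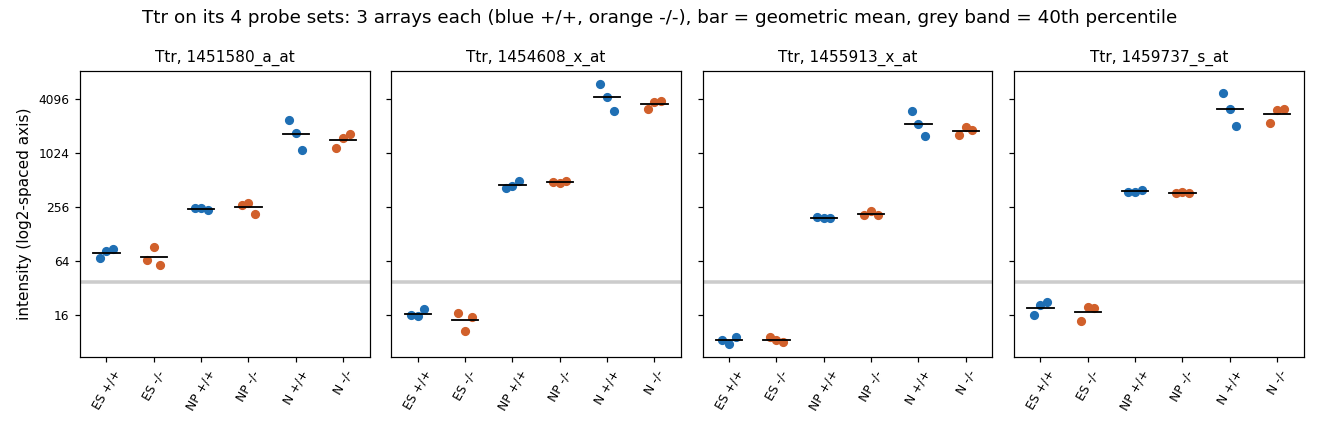
Intensity of Ttr on each of its 4 probe sets, 3 arrays per group (vertical axis log2-spaced; blue +/+, orange -/-; black bar, geometric mean; grey band, background bounds). All 4 rise from ES cells to progenitors to neurons, and in ES cells only 1451580_a_at, at 58.3 to 91.9, lies above the band.

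The genes with profiles nearest to Ttr were Scg5, a neuroendocrine chaperone, and Dcx and Map2, microtubule proteins of neurons. The root mean square difference of their centred group means over the 6 groups was 0.212, 0.222 and 0.227 (log2), where the Ttr group means spanned 8.15. This Ttr profile is that of 1454608_x_at, which was below the bound in ES cells. On 1451580_a_at the Ttr group means ran only from 6.16 to 10.68. Of 13 choroid plexus markers, 8 were tested, and from +/+ progenitors to neurons 2 rose and 3 fell. Their summed intensity was 3764 to 3780 in +/+ progenitors and 3552 to 3776 in +/+ neurons. Aqp1, a water channel, read between 60.8 and 70.5 in +/+ progenitors and between 195.8 and 221.4 in +/+ neurons, and rose (limma, adjusted p = 2.68e-09). Calml4 read between 335.6 and 397.7 in +/+ ES cells, between 17.7 and 21.3 in those progenitors and between 685 and 701.6 in those neurons. From progenitors to neurons it rose (limma, adjusted p = 5.75e-17). Clic6, a chloride channel protein, read between 720 and 777.6 in those progenitors and between 304.1 and 347.4 in those neurons, and fell (adjusted p = 1.16e-08). Folr1 (-0.92) and Sostdc1 (-0.87) also fell (limma, adjusted p = 2.02e-07 and 7.75e-06). The defining markers Kl and Kcne2 reached at most 20.8 and 15.4 on any array, below the bound, and Kcnj13 at most 41.8, above it on 1 array.

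Afp, alpha-fetoprotein, the main serum protein of the fetus, was low in every group and highest in -/- progenitors. Its probe set 1416646_at read 43.6, 38.9 and 41.1 in +/+ ES cells and 38.7, 39.0 and 45.3 in -/- ES cells. It read 59.9, 44.1 and 53.2 in +/+ progenitors and 77.9, 75.5 and 69.9 in -/- progenitors. In neurons it read 30.8 to 33.8 in +/+ and 31.8 to 37.9 in -/-. The progenitor genotypes did not overlap, and no +/+ neuron array reached the bound.

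In progenitors Afp was 0.51 higher (log2; SE 0.10) in -/- cells (limma, adjusted p = 0.00136). On 1416645_a_at the same difference was 1.70 (SE 0.12; adjusted p = 5.29e-08 over all probe sets), from 24.6, 25.3 and 28.1, below the bound, to 99.4, 99.4 and 66.3; against the bound it was at least 1.21. The 3 remaining Afp probe sets were below the bound on all 18 arrays. Afp rose from ES cells to progenitors by 0.33 in +/+ (adjusted p = 0.0052) and by 0.85 in -/- (adjusted p = 4.3e-07). The nearest profiles were those of Ece1, Aldh1a3 and Col5a3, at 0.051 to 0.063, over a small span of 1.18 in the Afp group means.

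Apoa1, the main protein of high-density lipoprotein, varied between 35.4 and 63.6 on probe set 1455201_x_at over all 18 arrays. It differed between genotypes by -0.14 (95% interval -0.40 to 0.13) in ES cells, 0.17 (-0.10 to 0.43) in progenitors and -0.07 (-0.33 to 0.19) in neurons. On 1438840_x_at the +/+ progenitors read 32.3 to 34.4, below the bound on all 3 arrays, and the -/- progenitors 41.8 to 49.6. Their mean log2 values were 5.105 and 5.522 (limma, adjusted p = 0.0123 over all probe sets). With values raised to the bound the difference was at least 0.27, which was not tested. Apoa1 was lower in neurons than in ES cells, by 0.46 in +/+ (adjusted p = 0.0022) and by 0.40 in -/- (adjusted p = 0.00663).

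Apob, the structural protein of the very-low-density and low-density lipoproteins, read 19.6 to 33.2 on its brighter probe set and 11.1 to 24.8 on the other. Neither reached the background bound on any array, so Apob was not measurable here. Of the other secreted products of visceral endoderm, 10 of 22 listed genes were tested. Alb, Fgb, Apoc3 and Serpinc1 were below the bound on every array.

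Of the receptor genes, Cubn read 16.8, 29.5 and 21.6 in +/+ ES cells and 23.4, 31.1 and 36.4 in -/- ES cells on probe set 1452270_s_at, all below the bound. In progenitors it read 264.0, 272.6 and 322.7 in +/+ and 166.9, 176.7 and 166.7 in -/-. In neurons it read 90.5, 63.6 and 77.2 in +/+ and 57.1, 57.4 and 60.6 in -/-. Every -/- array lay below every +/+ array in both progenitors and neurons.

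Cubn was 3.63 higher (log2) in +/+ progenitors than in ES cells (limma, adjusted p = 4.53e-12), and 2.47 higher in -/- (adjusted p = 7.11e-10). With values raised to the bound, the differences were at least 2.87 and 2.14. Cubn then fell by 1.89 in +/+ neurons (limma, adjusted p = 2.68e-08) and by 1.53 in -/- neurons (adjusted p = 3.86e-07). The genotype difference in progenitors was -0.74 (SE 0.17; adjusted p = 0.00619). The second probe set, dimmer, gave -0.92 (SE 0.11; adjusted p = 2.06e-05 over all probe sets). In neurons the difference was -0.38 (SE 0.17) and did not pass the test (adjusted p = 0.17).

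Amn, the membrane partner of cubilin, did not follow Cubn. It read 67.9, 67.8 and 62.2 in +/+ ES cells and 66.3, 63.6 and 89.5 in -/- ES cells. In progenitors it read 78.4, 89.5 and 77.3 in +/+ and 49.3, 45.5 and 47.8 in -/-. In neurons it read 115.3, 115.6 and 109.2 in +/+ and 94.4, 103.1 and 99.2 in -/-. The lowest group was thus the -/- progenitors, and the neurons were highest in both genotypes.

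In progenitors Amn was lower in -/- cells, by a log2 difference of -0.77 (SE 0.10; limma, adjusted p = 2.89e-05). From ES cells to progenitors it rose by 0.30 in +/+ (adjusted p = 0.00975) and fell by 0.60 in -/- (adjusted p = 3.07e-05); without NP +/+ replicate 2 the rise was 0.24 (adjusted p = 0.0553). From progenitors to neurons it rose by 0.47 in +/+ and by 1.04 in -/- (adjusted p = 0.000335 and 3.59e-08). The neuron genotype difference was -0.20 (SE 0.10; adjusted p = 0.218). Amn has 1 probe set. It lies on chromosome 12, where 19% of tested genes were lower in -/- progenitors, against 9.19% of all genes; the part of this in the Amn value was not tested.

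On 2 of its 3 probe sets Lrp2 lay above the bound on all 18 arrays, and on 1445901_at it did so on 0. Its probe set 1427133_s_at read 248.2, 279.2 and 246.3 in +/+ ES cells and 371.9, 379.7 and 399.0 in -/- ES cells. In progenitors it read 797.1, 803.4 and 875.2 in +/+ and 717.5, 793.3 and 756.6 in -/-. In neurons it read 187.1, 134.2 and 219.1 in +/+ and 98.9, 116.1 and 96.5 in -/-. The -/- arrays were all higher in ES cells and all lower in progenitors and neurons, by little in the progenitors.

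The genotype difference of Lrp2 was 0.57 (log2; SE 0.13; limma, adjusted p = 0.00725) in ES cells and -0.77 (SE 0.13; adjusted p = 0.000596) in neurons. In progenitors it was -0.13 (95% interval -0.39 to 0.14) and did not pass the test. The second bright probe set gave 0.62 for ES cells, -0.32 for progenitors and -0.95 for neurons, with calls in the same cell types. From ES cells to progenitors Lrp2 rose by 1.68 in +/+ and 0.98 in -/- (adjusted p = 1.96e-09 and 1.9e-06), and to neurons it fell by 2.22 and 2.86 (adjusted p = 4.88e-11 and 1.66e-12). The -/- rise depended on the probe set. On the second bright one the -/- group means were 8.696 in ES cells and 8.794 in progenitors (log2). Of the 3 Lrp2 probe sets, 2 were called higher from ES cells to progenitors in +/+ and 1 in -/-. Neurons were below ES cells in both genotypes (adjusted p = 0.000722 and 2.27e-10).

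Dab2, the clathrin adaptor, was high in the progenitors. On 1420498_a_at it read 45.9, 57.1 and 49.6 in +/+ ES cells and 61.3, 68.9 and 67.3 in -/- ES cells. In progenitors it read 902.7, 1009.3 and 948.7 in +/+ and 539.3, 530.7 and 557.5 in -/-. In neurons it read 228.2, 219.7 and 235.7 in +/+ and 193.7, 170.9 and 190.4 in -/-. The genotypes overlapped in none of the 3 cell types.

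From ES cells to progenitors Dab2 rose by 4.21 (log2; SE 0.08) in +/+ and by 3.02 in -/- (limma, adjusted p = 2.58e-17 and 1.12e-15), and to neurons it fell by 2.06 and 1.55 (adjusted p = 1.89e-13 and 6.2e-12). In progenitors it was lower in -/- cells, at -0.81 (SE 0.08; adjusted p = 9.59e-07). All 4 Dab2 probe sets fell there, from -0.63 to -0.96. The ES cell call, 0.37 (adjusted p = 0.00468), held on this probe set only: the second bright one read 58.4, 60.8 and 66.3 in +/+ and 51.6, 54.0 and 52.2 in -/- (-0.23; adjusted p = 0.0548 over all probe sets). The neuron call, -0.30 (adjusted p = 0.0141), was also lost on the second (-0.09), and without N +/+ replicate 3 (-0.28; adjusted p = 0.0548) or N -/- replicate 2 (-0.24; adjusted p = 0.0762).

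Over the 6 group means, Cubn and Dab2 differed by a root mean square of 0.248 (log2) after centring, the smallest of the 21 member pairs tested, and each was the second nearest gene to the other among all tested genes. Nearer to Cubn was Chst15, a sulfotransferase (0.169), and nearer to Dab2 was F3, tissue factor (0.188). Cubn and Amn, whose products form 1 receptor, differed by 1.37. The nearest to Lrp2 were Perp, Dusp5 and Tubb6, at 0.237 to 0.250, and to Amn Cbr1, Lrch1 and Oplah, at 0.120 to 0.163. Nearest to Apoa1, at 0.023 to 0.032, were Phgr1, Gm12596 and 4930542N06Rik, where the Apoa1 group means spanned only 0.53. These distances are descriptions over 6 group means.

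Counted by cell type, 2 of the 7 tested members were called in ES cells, both higher in -/- (Dab2 and Lrp2), where 14.9% of all genes were called, 10.5% higher and 4.32% lower. In progenitors 4 were called, Afp higher and Amn, Cubn and Dab2 lower, against 17.0% of all genes, 7.81% higher and 9.19% lower. In neurons 2 were called, both lower (Dab2 and Lrp2), against 13.2% of all genes, 5.95% higher and 7.27% lower. The groups did not overlap for 2, 5 and 4 members, against 28.3%, 40.8% and 31.5% of all genes. The member medians were 0.13, -0.13 and -0.25 (log2), and those of all genes 0.04, 0.00 and -0.02.

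**Figure D3:**
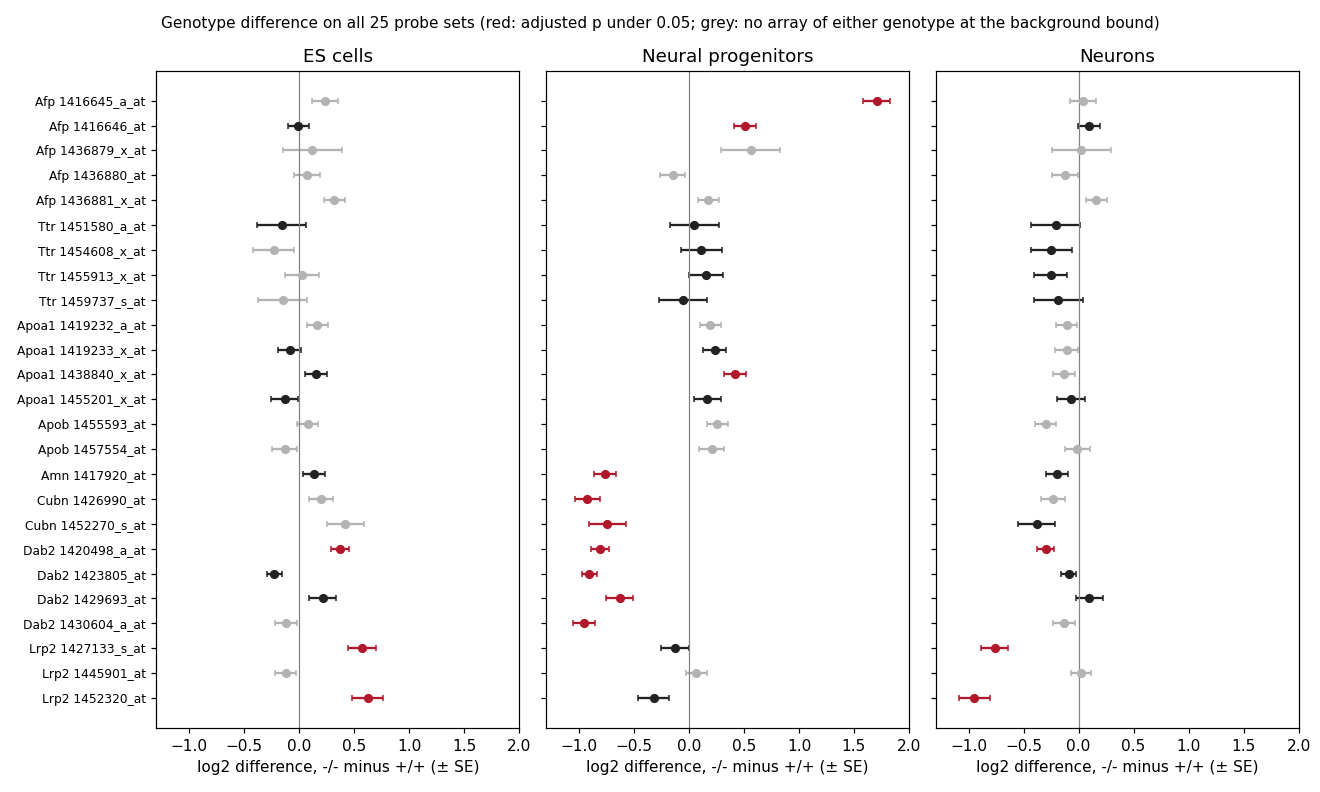
Difference in log2(intensity + 1) between -/- and +/+ arrays (horizontal axis, ± SE, 3 arrays a group) for all 25 probe sets in the 3 cell types. Red marks adjusted p under 0.05 over all probe sets and grey marks probe sets with no array of either genotype at the bound; in progenitors all probe sets of Amn, Cubn and Dab2 are red on the lower side and 2 of Afp on the higher side.

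The genotype differences also depended on the cell type. Between progenitors and ES cells the difference itself moved for 5 of the 7, 1 up and 4 down, against 16.3% of all genes, 5.71% up and 10.6% down. Between neurons and progenitors it moved for 3, 2 up and 1 down, against 11.1%, 5.67% up and 5.41% down. Between neurons and ES cells it moved for 3, all down, against 15.7%, 4.70% up and 11.0% down. Dab2 changed by -1.18 from ES cells to progenitors (SE 0.11; limma, adjusted p = 1.83e-06) and Cubn by -1.16 (adjusted p = 0.00402), though Cubn was below the bound in ES cells and its change was -0.73 with values raised to the bound. Lrp2 changed by -1.34 from ES cells to neurons (SE 0.18; adjusted p = 0.000159). Without ES +/+ replicate 3, the array that stood apart, the ES cell difference was 0.36 for Dab2 and 0.54 for Lrp2 (adjusted p = 0.0187 and 0.0276), and the changes from ES cells to progenitors were -1.17 for Dab2, -1.15 for Cubn and -0.67 for Lrp2 (adjusted p = 8.55e-06, 0.00967 and 0.0305). The Cubn change from ES cells to neurons, -0.80 (adjusted p = 0.0371), lost its call without that array (-0.79; adjusted p = 0.0654). These comparisons share arrays with the genotype comparisons above.

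The partners of the receptors were read from a list of 21 genes of clathrin endocytosis and receptor recycling, of which 20 were tested. In progenitors 3 were lower in -/- cells and 0 higher, with 9.19% of all genes lower; the list median was -0.01. The first was Lrpap1, the chaperone that escorts LDL family receptors through the secretory pathway, at 5496 to 5810 in +/+ and 2551 to 2781 in -/- (-1.08; limma, adjusted p = 1.05e-09). Myo6, the myosin that carries endocytic vesicles inward, read 119.6 to 122.1 and 79.1 to 82.9 (-0.57; adjusted p = 7.11e-06), and Rab11a, a recycling GTPase, changed by -0.28 (adjusted p = 0.0154). Lrpap1 also was lower in -/- neurons (-0.25; adjusted p = 0.00602), while Fcgrt, the receptor that recycles IgG and albumin, was higher there (0.81; adjusted p = 1.61e-06). The remaining clathrin genes tested in progenitors did not pass the test.

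Of 11 tested relatives of Lrp2 in the LDL receptor family, 3 were higher and 2 lower in -/- progenitors, where 7.81% of all genes were higher and 9.19% lower. Lrp1, a broad scavenger receptor, read 284.2 to 320.7 in +/+ and 414.1 to 459 in -/- (0.56; limma, adjusted p = 0.00073). Sorl1, a sorting receptor, changed by -0.62 (adjusted p = 2.54e-06) and Lrp10 by -0.50 (adjusted p = 0.00153). Of 7 tested vitamin carriers and receptors, 1 was higher (Rbp4, which is also on the list of secreted products and is given there) and 2 were lower. Tcn2, the plasma carrier of vitamin B12, read 2266 to 2354 and 1479 to 1596 (-0.60; adjusted p = 9.41e-07), and Stra6, the receptor for retinol-binding protein, changed by -0.28 (adjusted p = 0.0295).

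The other secreted products of visceral endoderm split in progenitors, 3 higher and 3 lower in -/- of 10 tested, against 7.81% and 9.19% of all genes. Vtn, vitronectin, read 151.1 to 164.6 in +/+ and 469.2 to 493.6 in -/- (1.63; limma, adjusted p = 6.42e-10). Rbp4, the plasma carrier of retinol that travels with transthyretin, read 218.1 to 256 and 456.3 to 517 (1.03; adjusted p = 9.44e-06), and Ttpa, a vitamin E transfer protein, changed by 0.48 (adjusted p = 0.026). Spink1, a trypsin inhibitor, read 1139 to 1264 and 700 to 744.2 (-0.71; adjusted p = 0.00195). Apoe changed by -0.38 and Mttp, which loads lipid on apolipoprotein B, by -0.22 (adjusted p = 0.00322 and 0.0419).

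The endoderm transcription factors were lower in -/- progenitors for 6 of 10 tested, and higher for 1, against 9.19% and 7.81% of all genes. Sox17 read 4544 to 4883 in +/+ and 1317 to 1403 in -/- (-1.79; limma, adjusted p = 4.26e-08). Gata6 read 943.2 to 996.8 and 294.9 to 325.8 (-1.64; adjusted p = 7.08e-07), and Sox7 changed by -1.79 and Gata4 by -1.38 (adjusted p = 5.4e-09 and 5.4e-07). Hnf4a, a main activator of apolipoprotein genes in visceral endoderm, read 126.5 to 132.1 and 77.9 to 89.7 (-0.62; adjusted p = 3.71e-06). Foxa1 was higher (1.43; adjusted p = 2.24e-06); it is also a floor plate gene. Signals of the visceral endoderm were lower for 4 of 7, led by Dkk1, a Wnt inhibitor (-1.82; adjusted p = 2.98e-05), and Ihh (-0.84; adjusted p = 2.11e-05).

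**Figure D4:**
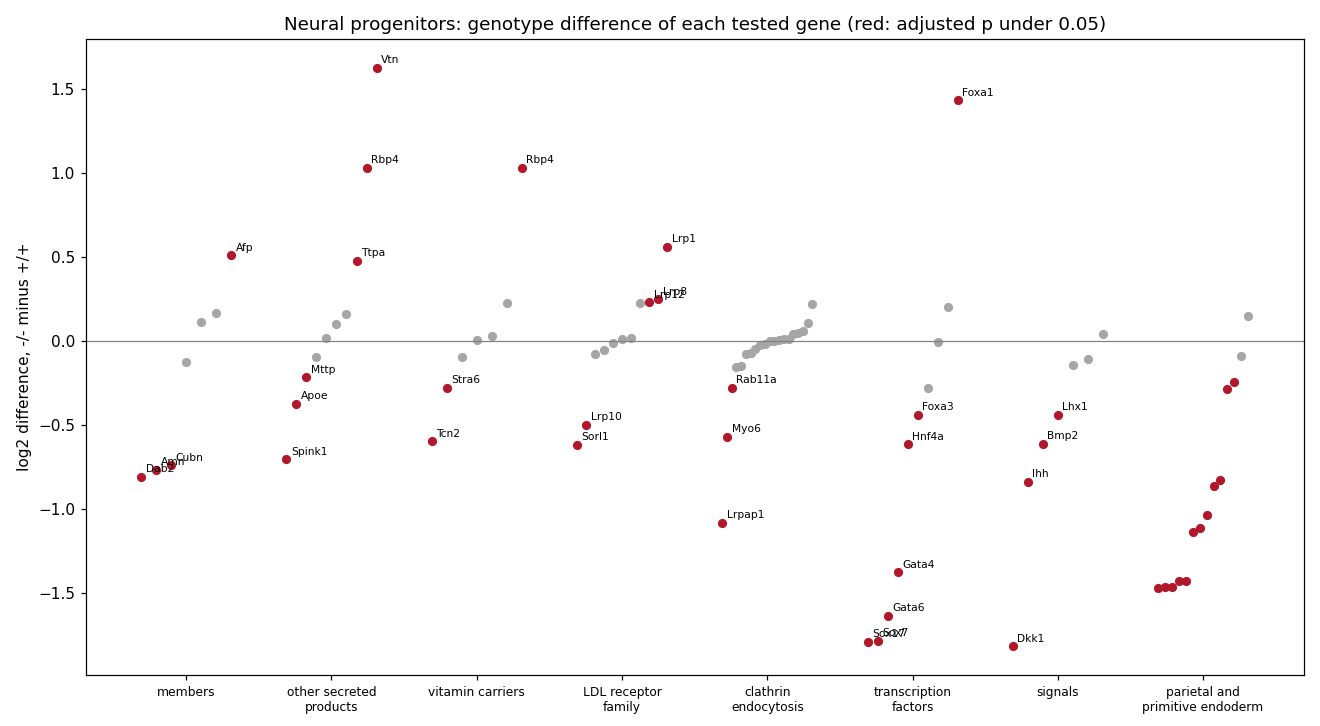
Difference in log2(intensity + 1) between -/- and +/+ progenitors (vertical axis, 3 arrays a group) for each tested member and each tested gene of 7 lists (columns). Red marks adjusted p under 0.05, with names in all but the last column; the secreted products lie on both sides of 0, and 12 of 14 parietal and primitive endoderm genes are red below 0.

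Markers of other cell types moved with the progenitor genotype, where 7.81% of all genes were higher and 9.19% lower in -/-. Of 14 parietal and primitive endoderm genes, 12 were lower in -/- (median -1.08), with a summed intensity of 58400 to 59590 in +/+ and 34100 to 34680 in -/-. Of 10 mesenchyme and fibroblast genes, 9 were higher (median 0.81), with sums of 15110 to 16470 and 25920 to 27120. Of 8 pluripotent stem cell genes, 5 were lower, with sums of 1476 to 1560 and 1017 to 1114, and of 9 midbrain floor plate and dopaminergic genes, 5 were higher. Of 9 hepatocyte markers 2 were tested. Cps1 was higher in -/- progenitors, at 43.7 to 47 against 30.5 to 40.4 in +/+ (0.38; limma, adjusted p = 0.0066), and Tat read 56 to 83.3 on all arrays and was not called there. G6pc and Cyp3a11 reached at most 15 and 13.5 on any array. Of 7 kidney proximal tubule genes 4 were tested and 0 called in progenitors, and Slc5a12 reached at most 11.7. Of 8 macrophage markers 4 were tested: Fcer1g was lower in -/- progenitors (46.6 to 57.4, against 61.7 to 77.2 in +/+; -0.39, adjusted p = 0.0149), and Csf1r, at 83.7 to 105.8 over both genotypes, was not called. Ptprc and Aif1 reached at most 14.4 and 17.5 on any array. The part of these cell types in the member values was not tested.

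The labelled ES cells and neurons carried their own markers. Pluripotent genes summed to 42980 to 44390 in +/+ ES cells and 488.5 to 573.2 in +/+ neurons, and neuron genes to 4422 to 4670 and 29680 to 33390. Neural progenitor genes summed to 8703 to 9114 in +/+ ES cells, 34250 to 35180 in +/+ progenitors and 31620 to 33430 in +/+ neurons. This last sum set the progenitors little apart from the neurons. Genes of the endoderm and mesenchyme lists also rose in the neural cultures. From ES cells to progenitors 41.3% of all genes rose in +/+ and 39.8% in -/-. All 14 parietal and primitive endoderm genes rose over that step in both genotypes (median 4.54 in +/+ and 3.11 in -/-), as did all 10 mesenchyme genes. These lists include laminin and collagen genes, and which cells made the transcripts was not tested.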

How the data were processed

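RNA of 18 samples was hybridised to Affymetrix mouse arrays. The deposited values are linear intensities made by the authors with RMA; RMA and limma are named in the submitters' processing notes, without versions. Of 45101 probe sets, 34945 name 1 gene symbol (9160 none, 932 several, 64 controls). Symbols came from the platform annotation, updated through Entrez IDs. Kept probe sets (26311) reached the array's 40th percentile on at least 3 arrays. The probe set of a gene with the highest mean was used, and all probe sets of the members were fitted separately. Here, log2(intensity + 1) was fitted with limma 3.58.1 in R 4.3.3 as 6 group means (12 residual degrees of freedom) with Benjamini-Hochberg adjustment, and the script was tested on simulated data. For a group wholly below the bound, the difference was also computed with values raised to the bound, and is given as "at least" where so computed. All p-values belong to the differences without raised values. The members and gene lists were chosen with earlier results of these data known. Named are all member probe sets, up to 4 called genes with the largest differences per list and comparison, and the 3 nearest profiles per member; other listed genes are given with their values, and Hnf4a and Mttp were added after their values were seen. Same-numbered replicates were not paired: correlations of their deviations ran from -0.138 to 0.116. The number of arrays limits the precision.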

Additional observations from a re-analysis of the deposited data

Results flagged for a closer look

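Genotype differences that changed between cell types were found for 5 members by limma's interaction terms, each on 3 arrays a group with adjustment over all tested genes. Between ES cells and progenitors the log2 difference rose by 0.52 for Afp (0.517, adjusted p = 0.0167) and changed by -0.90 for Amn (-0.898, adjusted p = 0.00033), -1.16 for Cubn (-1.162, adjusted p = 0.00402), -1.18 for Dab2 (-1.181, adjusted p = 1.83e-06) and -0.70 for Lrp2 (-0.699, adjusted p = 0.0134). Between progenitors and neurons it changed by 0.57 for Amn (0.572, adjusted p = 0.0134), 0.51 for Dab2 (0.511, adjusted p = 0.00546) and -0.64 for Lrp2 (-0.638, adjusted p = 0.0295). Between ES cells and neurons it changed by -0.80 for Cubn (-0.800, adjusted p = 0.0371), -0.67 for Dab2 (-0.670, adjusted p = 0.000685; 1 of its 4 probe sets was called, and the mean of its kept probe sets gave -0.165, adjusted p = 0.192) and -1.34 for Lrp2 (-1.337, adjusted p = 0.000159). Cubn was below the background bound in ES cells; with values raised to the bound, its changes from ES cells were -0.73 to progenitors and -0.36 to neurons. With 3 arrays a group, single arrays were not tested as outliers.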

How the results depend on the processing

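Over 756 results of 7 members in 12 comparisons under settings other than leaving out an array (pseudocount, normalization, centring, filter, array weights, probe set rule, replicate block, only the arrays compared), 739 kept the call, 8 lost it, 9 gained it and 0 reversed. Leaving out 1 array gave 630 results: 602 kept the call, 23 lost it, 5 gained it and 0 reversed. A reversal was counted only for results called with or without the change. Direction was not compared for results called in neither. With the mean of all kept probe sets, 1 member was called in ES cells (2 before), 1 in neurons (2 before) and 6 between neurons and progenitors by genotype (3 before); Dab2 lost its ES call (0.06, adjusted p = 0.556) and its neuron call (-0.11, adjusted p = 0.269), Apoa1 gained one in progenitors (0.27, adjusted p = 0.0128), and the progenitor difference of Afp became 1.11. With only the arrays compared, 1 was called in ES cells, Dab2 being lost (adjusted p = 0.0949). Leaving out 1 array gave 1 to 2 calls in neurons. The Cubn change between ES cells and neurons lost its call without ES +/+ replicate 1 (-0.61, adjusted p = 0.0845) and without most other single arrays, and the Lrp2 change between progenitors and neurons without N +/+ replicate 3 (-0.48, adjusted p = 0.0628) and others. Cubn gained an ES call without ES +/+ replicate 2 (0.62, adjusted p = 0.0189) or ES -/- replicate 1 (0.59, adjusted p = 0.0361), with both genotypes below the bound. The replicate block changed no call of a member: 2, 4 and 2 were called in ES cells, progenitors and neurons, as without it. Without ES +/+ replicate 3, chosen after seeing the data, 2 members were called in ES cells, 5 between ES cells and progenitors by genotype, and 2 between ES cells and neurons by genotype (3 before). Array signal near the background bound limits Afp, Apoa1, Apob, and Cubn in ES cells.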
